A study of Mus musculus with 8 samples.

Results

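S100a8, S100a9, Lcn2, Cxcr2 and Il1b are genes that neutrophils express at high levels, and they are described here in tibialis anterior (a lower leg muscle) of mice with cancer cachexia. They were picked by name from 2 tables of the authors' Cuffdiff comparisons, in which 6028 genes are listed in all, and the choice was made with the values of these tables known. The 4T1 table lists all 5 genes, and the C26m2 table lists S100a8, S100a9 and Lcn2 and lacks Cxcr2 and Il1b. Their values are therefore a description, and no test of them is given.

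The study used 8 libraries in 4 groups of 2, from mice of 12 to 14 weeks. The first pair of groups is Balb/c mice with cachexia from 4T1, a metastatic breast cancer line, and healthy Balb/c mice. The second is CD2F1 mice with cachexia from C26m2, a metastatic colon cancer line, and healthy CD2F1 mice. Injected tumours carried luciferase and were cut out 2 to 3 weeks after injection, and muscles were taken 5 weeks after injection, once imaging had shown metastases. The labels record neither injection nor surgery for the healthy mice, so effects of these steps and of cancer cannot be told apart. Nothing in the labels says that the 2 libraries of a group came from separate animals. Values are the authors' group FPKM (sequenced fragments normalized to transcript length and to library size), 1 per group, so no spread between libraries can be given and sequencing depth is unknown. Each table was normalized on its own, so levels set across the tables are side by side only. A gene is called where its table lists it, which means a Cuffdiff q of 0.05 or less.

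Neutrophils are short-lived white cells made in the bone marrow that enter tissue from the blood during inflammation. S100A8 and S100A9 are calcium-binding proteins that pair as calprotectin and fill much of the neutrophil's cytosol, and released calprotectin signals through TLR4 and RAGE. Lipocalin 2, the product of Lcn2, is stored in neutrophil granules and binds the iron carriers of bacteria, and other tissues also make it in inflammation. CXCR2 is the chemokine receptor that guides neutrophils out of the marrow and towards CXC ligands. Interleukin 1 beta, from Il1b, is a cytokine that myeloid cells make as a precursor and caspase-1 cuts.

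The promoter windows are shown for the 3 genes that both tables list, each time as higher in cachectic muscle. They are RefSeq sequences of mouse build GRCm38.p6, which differs from the authors' build, and run from 250 bases before to 50 bases after the annotated start. The S100a8 window is chr3:90668821-90669120 on the plus strand, the S100a9 window chr3:90695672-90695971 on the minus strand and the Lcn2 window chr2:32387690-32387989 on the minus strand. Capitals mark matches on either strand to 3 patterns, TTGCNNAA (of the C/EBP type), GAGGAA (the core bound by PU.1) and TATAAA (the TATA type).
S100a8: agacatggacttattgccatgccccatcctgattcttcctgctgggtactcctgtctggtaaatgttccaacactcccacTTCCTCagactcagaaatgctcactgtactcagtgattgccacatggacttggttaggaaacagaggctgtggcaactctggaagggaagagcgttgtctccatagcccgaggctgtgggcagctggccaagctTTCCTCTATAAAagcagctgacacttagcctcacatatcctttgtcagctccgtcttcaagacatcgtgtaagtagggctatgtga
S100a9: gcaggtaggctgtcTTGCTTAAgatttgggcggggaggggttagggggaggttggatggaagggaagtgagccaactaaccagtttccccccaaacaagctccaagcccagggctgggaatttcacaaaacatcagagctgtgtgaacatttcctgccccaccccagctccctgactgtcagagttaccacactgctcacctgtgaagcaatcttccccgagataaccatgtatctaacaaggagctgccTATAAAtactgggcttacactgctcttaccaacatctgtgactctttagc
Lcn2: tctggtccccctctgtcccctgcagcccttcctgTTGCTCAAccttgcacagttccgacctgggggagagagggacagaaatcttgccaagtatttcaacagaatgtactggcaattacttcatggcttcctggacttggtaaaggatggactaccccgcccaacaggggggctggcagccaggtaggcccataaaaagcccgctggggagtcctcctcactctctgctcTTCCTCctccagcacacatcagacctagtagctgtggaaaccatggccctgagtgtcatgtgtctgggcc
In these windows TTGCNNAA stood 236 bases before the start of S100a9 and 216 bases before that of Lcn2. It was in 10.8% of 32851 promoter windows of the same length. GAGGAA was found on the strand opposite to the gene, printed as TTCCTC, 170 and 36 bases before the start of S100a8 and 20 bases before that of Lcn2, and it was in 28.3% of all windows. TATAAA stood 30 bases before the start of S100a8, next to and sharing no base with the GAGGAA match, and at the annotated start itself in S100a9, and it was in 13.6% of all windows. Of the other members, Cxcr2 matched GAGGAA and Il1b matched TATAAA. Neither GGGNN followed by TTTCC (NF-kappaB type, in 1.63% of windows) nor TTCNNNGAA (STAT type, in 8.30%) matched in any of the 5. Since TATAAA lies at the annotated start of S100a9 itself, the distances given for that gene depend on that annotated start. These are matches of letters in a fixed window, not sites.

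**Figure D1:**
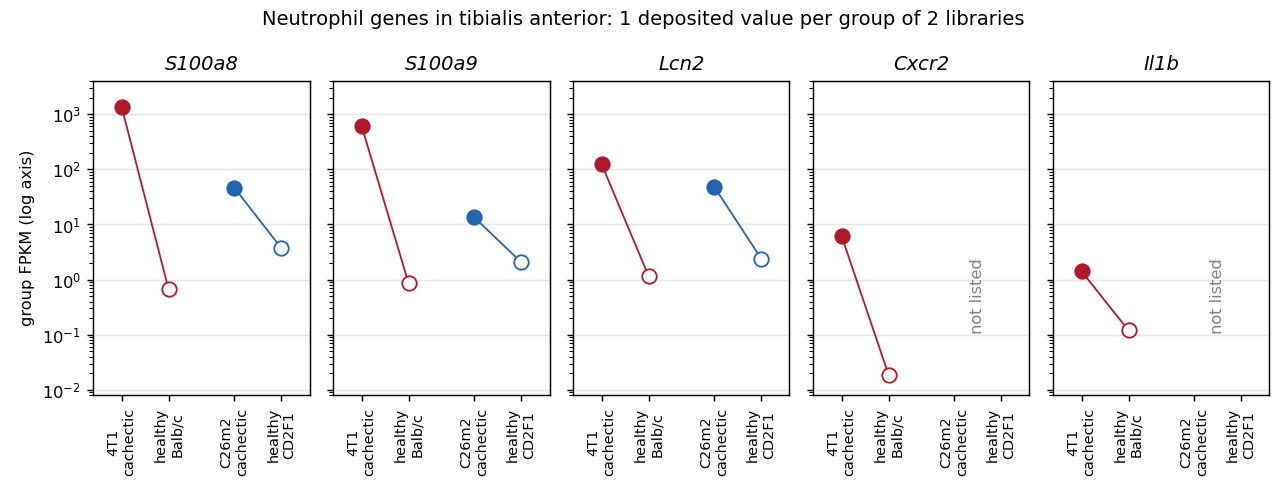
Group FPKM on a log axis for the 5 genes, with filled circles for cachectic and open circles for healthy muscle, 1 deposited value per group. S100a8 stood at 1367 FPKM in 4T1 cachectic muscle, against 0.666 FPKM in healthy Balb/c muscle. Cxcr2 and Il1b are not listed in the C26m2 table.

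The 5 genes were higher in 4T1 cachectic muscle than in healthy Balb/c muscle. S100a8 had 1367 FPKM in 4T1 cachectic muscle and 0.666 FPKM in healthy Balb/c muscle, a 2052-fold difference. S100a9 had 615 FPKM in 4T1 cachectic muscle and 0.860 FPKM in healthy Balb/c muscle, a 714-fold difference. Both calprotectin genes thus lay near or under 1 FPKM in healthy muscle, and among the 4334 genes listed S100a8 was 14th and S100a9 46th by level in cachectic muscle. Lcn2 stood at 125 FPKM in 4T1 cachectic muscle, against 1.17 FPKM in healthy Balb/c muscle, which is 107-fold. Cxcr2 stood at 6.22 FPKM in 4T1 cachectic muscle, against 0.0189 FPKM in healthy Balb/c muscle, which is 328-fold. Il1b stood at 1.42 FPKM in 4T1 cachectic muscle, against 0.120 FPKM in healthy Balb/c muscle, which is 11.9-fold. The receptor and the cytokine were thus far less abundant per length than calprotectin, and the ratio for Cxcr2 divides by a level close to 0. Background for these counts was that 17.4% of about 13218 genes tested were called higher, and nothing is read from it because the genes were chosen from this comparison.

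In the authors' deposited table q was 0.000382 for S100a9 and Lcn2, 0.00898 for Il1b, 0.0348 for S100a8 and 0.0389 for Cxcr2. The gene with the largest change thus came close to the limit of the table. An SE can be read back from a deposited p as the log2 fold change over the matching normal quantile. That takes the test statistic as normal, which was not checked, so the implied SE is a rough scale only. For S100a8 the log2 fold change was 11.003 with an implied SE of 4.29, and for Cxcr2 it was 8.36 with 3.32. It was 3.57 for Il1b with an implied SE of 1.15. The log2 fold changes of S100a9, 9.48, and Lcn2, 6.74, go with the smallest p that the test gave, so their implied SEs of 2.34 and 1.66 are upper bounds. At q of 0.01 or less S100a8 and Cxcr2 are no longer called, which leaves 3 of the 5 genes, beside 11.9% of genes tested called higher at that limit.

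The 3 genes of the C26m2 table were also higher in cachectic muscle, by smaller ratios. Lcn2 had 48.1 FPKM in C26m2 cachectic muscle and 2.39 FPKM in healthy CD2F1 muscle, a 20.1-fold difference. S100a8 had 46.2 FPKM in C26m2 cachectic muscle and 3.71 FPKM in healthy CD2F1 muscle, a 12.4-fold difference. S100a9 had 13.4 FPKM in C26m2 cachectic muscle and 2.06 FPKM in healthy CD2F1 muscle, a 6.54-fold difference. Lcn2 thus had the largest ratio of the 3 here, whereas S100a8 had it in the 4T1 comparison. Their log2 fold changes were 4.33 for Lcn2, 3.64 for S100a8 and 2.71 for S100a9, with upper bounds of the implied SE of 1.07, 0.897 and 0.668. In the authors' deposited table q was 0.000319 for each, which goes with the smallest p. Of about 13121 genes tested, 21.7% were called higher, and at q of 0.01 or less, where all 3 stayed called, 15.9%. For Cxcr2 and Il1b there is no value in this comparison, and they are not taken as unchanged.

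**Figure D2:**
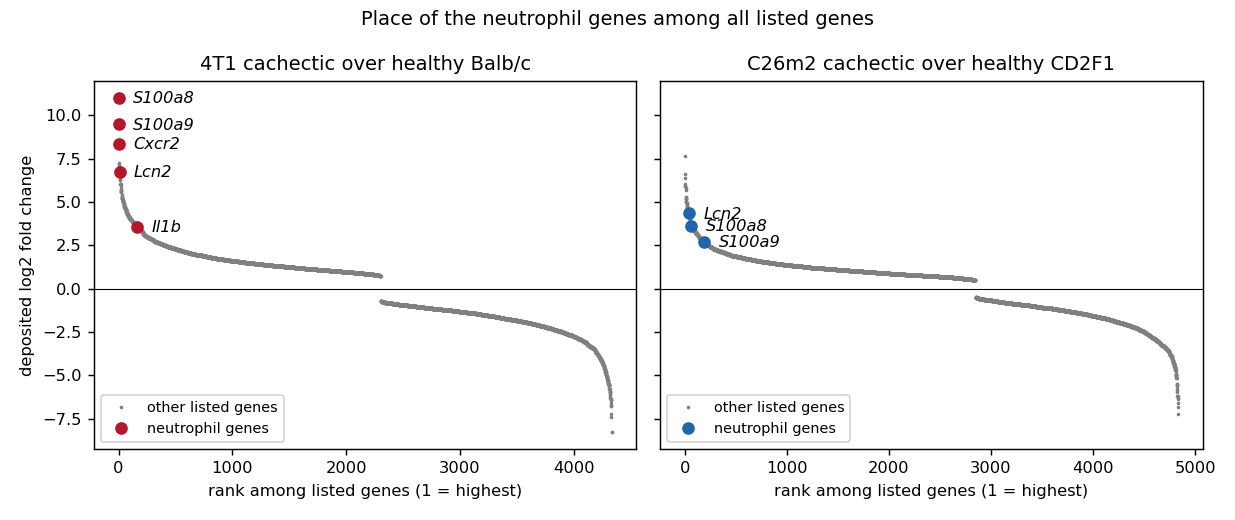
Deposited log2 fold change (vertical axis) against rank (horizontal axis) of every listed gene, cachectic over healthy, with the neutrophil genes as coloured points. Within the 4T1 comparison S100a8, S100a9, Cxcr2 and Lcn2 rank 1, 2, 4 and 9 and Il1b 164 of 4334. In the C26m2 table Lcn2, S100a8 and S100a9 rank 39, 65 and 188 of 4832.

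By size of change S100a8 and S100a9 were 1st and 2nd of the 4334 genes listed for 4T1, Cxcr2 4th, Lcn2 9th and Il1b 164th. Lcn2 was 39th of 4832 genes in the C26m2 table, S100a8 65th and S100a9 188th. The median log2 fold change of called higher genes was 1.48 in the 4T1 table and 1.14 in the C26m2 table. Changes of 32-fold or more upward were seen for 40 of the 4334 genes listed for 4T1, of which 4 are S100a8, S100a9, Cxcr2 and Lcn2. Another 7 of the 40 are on the lists of related genes described below, namely Cd300lf, Csf3r, Il18rap, Il1r2, Mmp9, Pglyrp1 and S100a7a. Such changes were seen for 15 of the 4832 genes of the C26m2 table, and 0 of them are members or on these lists. The members and lists were chosen with earlier results known, so nothing is read from these counts.

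Side by side, all 3 genes listed in both tables had the higher ratio in 4T1. Of 3138 genes listed in both tables, matched by Ensembl identifier, S100a8 had the largest and S100a9 the second largest excess of the 4T1 over the C26m2 log2 fold change. The excess was 7.37 for S100a8 with an implied SE of at most 4.38, 6.77 for S100a9 with one of at most 2.43, and 2.41 for Lcn2 with one of at most 1.98. Lcn2 was 29th in this order, and the median over all 3138 genes was -0.01. The difference was not tested, since the genes were chosen with it known. The healthy levels also differed, as S100a8 read 3.71 FPKM in healthy CD2F1 muscle and 0.666 FPKM in healthy Balb/c muscle. The 2 healthy values come from tables normalized separately, and strain and table cannot be told apart.

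The level of S100a8 relative to S100a9 differed between groups. S100a8 stood at 2.23 times the FPKM of S100a9 in 4T1 cachectic muscle and at 0.775 times in healthy Balb/c muscle. In the C26m2 comparison the ratio was 3.44 in cachectic and 1.81 in healthy CD2F1 muscle. S100a8 was thus the more abundant of the pair per length in every group except healthy Balb/c muscle. Together they summed to 1982 FPKM in 4T1 cachectic muscle, against 1.53 FPKM in healthy Balb/c muscle, and to 59.7 FPKM in C26m2 cachectic muscle, against 5.77 FPKM in healthy CD2F1 muscle.

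**Figure D3:**
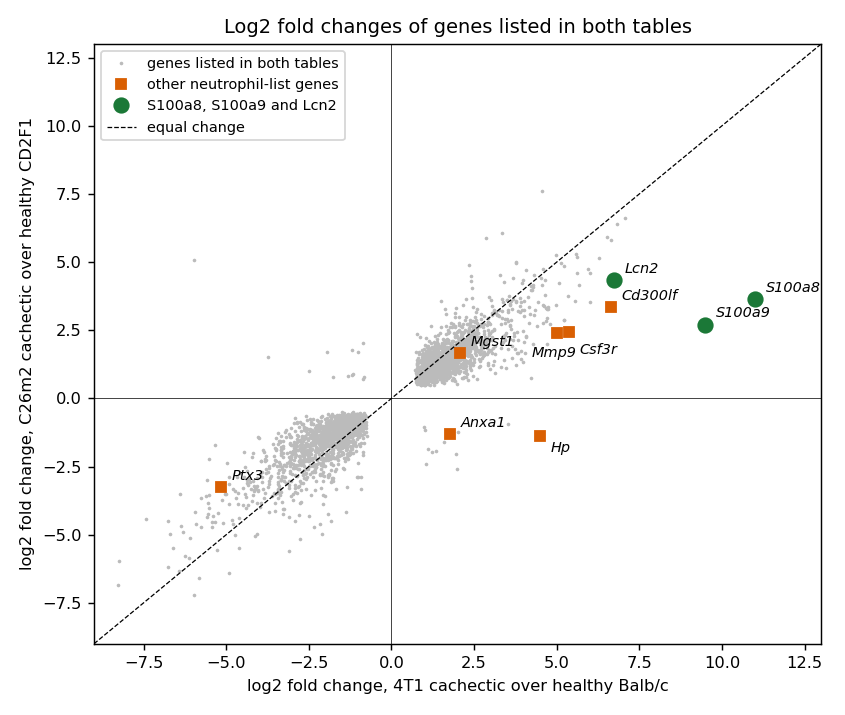
Log2 fold changes of the 3138 genes listed in both tables, 4T1 on the horizontal and C26m2 on the vertical axis, with the dashed line where both are equal. S100a8 and S100a9 lie far below the line, at 11.003 and 9.48 in 4T1 against 3.64 and 2.71 in C26m2. Hp and Anxa1 lie on opposite sides of 0.

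Genes with the most similar pair of log2 fold changes were sought by Euclidean distance over the 2 comparisons, among the genes listed in both tables. The closest to S100a8 were S100a9 at a distance of 1.78, Lcn2 at 4.32 and Cd300lf at 4.38. S100a9 had S100a8, then Cd300lf at 2.92 and Lcn2 at 3.19. For Lcn2 the closest were Maff, which encodes a small Maf transcription factor, at 0.77, 2410006H16Rik at 0.88 and 8430408G22Rik at 0.94. The nearest gene to Lcn2 was thus closer than the nearest to either calprotectin gene. Maff was 64.4-fold higher in 4T1 cachectic than healthy Balb/c muscle and 24.0-fold higher in C26m2 cachectic than healthy CD2F1 muscle.

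**Figure D4:**
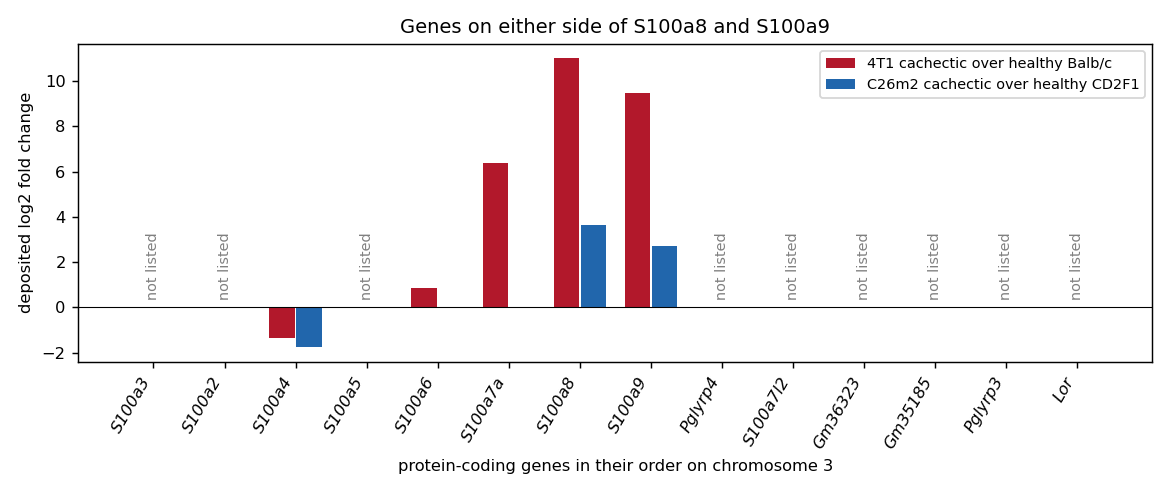
Deposited log2 fold change, cachectic over healthy, of S100a8, S100a9 and the 6 protein-coding genes on each side, in their order on chromosome 3 with no distances shown. S100a7a, next to S100a8, stands at 6.40 in the 4T1 comparison, and S100a4 lies below 0 in both comparisons.

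S100a8 and S100a9 are neighbours in the S100 gene cluster on mouse chromosome 3, by gene order in RefSeq. Of the 12 protein-coding genes flanking the pair, 6 on each side, S100a4, S100a6 and S100a7a are in the 4T1 table and S100a4 alone is in the C26m2 table. Over all genes tested, 4334 of about 13218 were listed for 4T1 and 4832 of about 13121 for C26m2. The flanking genes were thus not listed more often than other genes. S100a7a, the next gene beside S100a8, had 29.2 FPKM in 4T1 cachectic muscle and 0.347 FPKM in healthy Balb/c muscle, which is 84.2-fold. S100a6 had 111 FPKM in 4T1 cachectic muscle and 61.6 FPKM in healthy Balb/c muscle. S100a4 went the other way, with 5.68 FPKM in 4T1 cachectic muscle and 14.5 FPKM in healthy Balb/c muscle. It was also lower in the other model, with 3.05 FPKM in C26m2 cachectic muscle and 10.4 FPKM in healthy CD2F1 muscle. S100a4 and S100a7a, on the same side of S100a8, were thus called in opposite directions in 4T1. Of a list of 14 other S100 genes, S100a6, S100a7a and S100a11 were the 3 called higher in 4T1 and S100a4 the 1 called lower in each comparison. The 3 are 21.4% of the list, near the 17.4% of all genes tested, so this count does not set the list apart.

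Other neutrophil genes were compared through 3 lists of 78 genes in all, without the 5 members. For 4T1, 32 of the 78 were listed, 31 higher and 1 lower, beside 17.4% of genes tested called higher and 15.4% called lower. Their median log2 fold change was 3.43, against 0.86 over all genes of the table. For C26m2, 8 were listed, 4 higher and 4 lower, with a median log2 fold change of 0.17 against 0.72 over all its genes, beside 21.7% called higher and 15.1% called lower. Genes in both tables numbered 7, beside 3138 of all 6028 genes listed in either table. Another 45 were in neither, among them Ly6g, Cxcr1, Mpo, Elane, Ltf, Camp and Ngp. Most genes tested are not listed, since 4334 of about 13218 were listed for 4T1 and 4832 of about 13121 for C26m2. Nothing is therefore read from the 45. The lists and the members overlap in cell type, and the lists were chosen with some of these results known. In whole muscle, more neutrophils, more RNA per neutrophil and RNA from other cells cannot be told apart.

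Among granule and antimicrobial genes, 8 of 30 were higher and 1 lower in 4T1. Pglyrp1, a granule protein that binds bacterial cell walls, had 17.8 FPKM in 4T1 cachectic muscle and 0.462 FPKM in healthy Balb/c muscle. Mmp9, the granule gelatinase, had 10.02 FPKM in 4T1 cachectic muscle and 0.312 FPKM in healthy Balb/c muscle. Mmp9 was also higher in C26m2, at 0.473 FPKM in cachectic and 0.0906 FPKM in healthy CD2F1 muscle. Ptx3, a pentraxin, fell to 0.115 FPKM in 4T1 cachectic muscle, against 4.09 FPKM in healthy Balb/c muscle. In C26m2, 2 of the 30 were higher and 4 lower. Mgst1, a membrane glutathione transferase that many tissues express, had 199 FPKM in C26m2 cachectic muscle and 62.7 FPKM in healthy CD2F1 muscle. Mgst1 was also higher in 4T1, by 4.22-fold. Lyz2, the lysozyme of macrophages and neutrophils, had 8.65 FPKM in C26m2 cachectic muscle and 28.8 FPKM in healthy CD2F1 muscle. Ptx3 was lower here as well, at 0.345 FPKM in C26m2 cachectic muscle and 3.30 FPKM in healthy CD2F1 muscle. Of the 30 genes, 21 are not in the 4T1 table and 24 not in the C26m2 table. The share called higher was thus 26.7% in 4T1, beside 17.4% of all genes tested, and 6.67% in C26m2, beside 21.7%.

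Hp and Anxa1 changed in opposite directions in the models, and both were picked out after their values were seen. The difference itself was not tested. Hp encodes haptoglobin, a plasma protein from liver that neutrophil granules also hold. It had 18.0 FPKM in 4T1 cachectic muscle and 0.801 FPKM in healthy Balb/c muscle, but 2.98 FPKM in C26m2 cachectic muscle and 7.79 FPKM in healthy CD2F1 muscle. Albumin (Alb), the main plasma protein from liver, moved with Hp in the C26m2 comparison, at 8.11 FPKM in cachectic and 79.5 FPKM in healthy CD2F1 muscle, and its part in the Hp value was not tested. Alb is not in the 4T1 table. Anxa1, an anti-inflammatory annexin, had 37.7 FPKM in 4T1 cachectic muscle and 11.1 FPKM in healthy Balb/c muscle, but 4.79 FPKM in C26m2 cachectic muscle and 11.9 FPKM in healthy CD2F1 muscle.

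Of 35 surface receptors of neutrophils, 15 (42.9%) were higher and 0 lower in 4T1, beside 17.4% of all genes tested called higher. Cd300lf, an inhibitory receptor of myeloid cells, had 7.92 FPKM in 4T1 cachectic muscle and 0.0797 FPKM in healthy Balb/c muscle, a 99.4-fold difference. Csf3r, the receptor for the neutrophil growth factor G-CSF, had 11.4 FPKM in 4T1 cachectic muscle and 0.275 FPKM in healthy Balb/c muscle, a 41.4-fold difference. Both receptors were thus under 1 FPKM in healthy muscle. In C26m2, 2 of the 35 (5.71%) were listed, both higher, beside 21.7% of all genes tested called higher. Csf3r had 1.59 FPKM in C26m2 cachectic muscle and 0.297 FPKM in healthy CD2F1 muscle, and Cd300lf stayed under 1 FPKM in both groups.

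Of 13 genes of the phagocyte oxidase and of extracellular traps, 8 (61.5%) were higher and 0 lower in 4T1, and 0 were listed in C26m2. Over all genes tested, 17.4% were called higher in 4T1 and 21.7% in C26m2. Rac2, a GTPase that the oxidase needs, was 18.6-fold higher and Ncf4, the p40 subunit of the oxidase, 12.6-fold. Ncf4 reached 12.5 FPKM in 4T1 cachectic muscle, against 0.995 FPKM in healthy Balb/c muscle.

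Of 15 ligands and factors for neutrophil growth and attraction, 1 was listed in 4T1 and 2 in C26m2, each lower in cachectic muscle. Those are 6.67% and 13.3% of the list, beside 15.4% and 15.1% of all genes tested called lower. Cxcl12, which holds neutrophils in the marrow through CXCR4, had 15.2 FPKM in 4T1 cachectic muscle and 38.1 FPKM in healthy Balb/c muscle. It had 14.9 FPKM in C26m2 cachectic muscle and 32.3 FPKM in healthy CD2F1 muscle. Pf4, a platelet chemokine, had 1.56 FPKM in C26m2 cachectic muscle and 6.52 FPKM in healthy CD2F1 muscle. The CXCR2 ligand genes Cxcl1, Cxcl2, Cxcl3 and Cxcl5 and the G-CSF gene Csf3 are in neither table, so no level can be given for them.

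Receptors and partners of calprotectin and lipocalin 2 were listed for 4 of 10 genes in 4T1, all 4 (40%) higher. Over all genes tested, 17.4% were called higher. Ager, which encodes RAGE, had 2.05 FPKM in 4T1 cachectic muscle and 0.189 FPKM in healthy Balb/c muscle. Cd14, the TLR4 co-receptor, had 3.96 FPKM in 4T1 cachectic muscle and 0.602 FPKM in healthy Balb/c muscle, and Emb (embigin) was 2.74-fold higher. In C26m2 1 (10%) was higher and 1 (10%) lower, beside 21.7% and 15.1% of all genes tested. Cd36, a fatty acid carrier of muscle and a scavenger receptor, had 432 FPKM in C26m2 cachectic muscle and 114 FPKM in healthy CD2F1 muscle. Cd36 was also higher in 4T1, by 2.15-fold. Bsg (basigin) had 216 FPKM in C26m2 cachectic muscle and 308 FPKM in healthy CD2F1 muscle.

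Around Il1b, 5 of 24 other genes of the interleukin 1 system (20.8%) were higher and 0 lower in 4T1, a share near the 17.4% of all genes tested. Il1r2, the decoy receptor that neutrophils carry, had 14.0 FPKM in 4T1 cachectic muscle and 0.181 FPKM in healthy Balb/c muscle, a 77.2-fold difference. Il18rap, a subunit of the interleukin 18 receptor, was 37.0-fold higher, and Tollip, an adaptor that dampens signalling, had 82.8 FPKM in 4T1 cachectic muscle and 19.5 FPKM in healthy Balb/c muscle. Il1r2 thus stood at a higher level than Il1b itself, which reached 1.42 FPKM. In C26m2, 6 of the 24 (25.0%) were higher, near the 21.7% of all genes tested, and 2 lower. Neither count sets the list apart from other genes. Il1r2 had 1.43 FPKM in C26m2 cachectic muscle and 0.370 FPKM in healthy CD2F1 muscle, Tollip was 3.41-fold higher, and Il33, an alarmin, fell to 0.927 FPKM in C26m2 cachectic muscle, against 3.26 FPKM in healthy CD2F1 muscle.

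Of 12 endothelial adhesion genes for leukocytes, 4 (33.3%) were higher and 1 lower in 4T1, beside 17.4% of all genes tested called higher, and at q of 0.01 or less 2 were higher and 0 lower. In C26m2, 2 of the 12 (16.7%) were higher, beside 21.7% of all genes tested. Darc (now Ackr1), which displays chemokines on venules, was 5.39-fold higher in 4T1 cachectic muscle, the P-selectin gene Selp 3.89-fold and Icam1 2.69-fold. Pecam1 was 1.91-fold higher in 4T1 cachectic muscle and 2.28-fold higher in C26m2 cachectic muscle. Cdh5 was 1.42-fold higher in C26m2 cachectic muscle. Regulators of myeloid and inflammatory transcription were higher in 10 of 15 cases (66.7%) in 4T1 and 7 of 15 (46.7%) in C26m2. There were 0 lower in either, and the shares called higher over all genes tested were 17.4% and 21.7%. Cebpd, a C/EBP factor, had 225 FPKM in 4T1 cachectic muscle and 9.58 FPKM in healthy Balb/c muscle, and 180 FPKM in C26m2 cachectic muscle and 10.1 FPKM in healthy CD2F1 muscle. Sfpi1, which encodes PU.1 and marks myeloid cells, had 5.19 FPKM in 4T1 cachectic muscle and 0.464 FPKM in healthy Balb/c muscle and is not in the C26m2 table. Runx1 was 21.5-fold higher in 4T1 and 11.7-fold higher in C26m2, and Cebpb 7.19-fold higher in 4T1 and 4.17-fold higher in C26m2.

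**Figure D5:**
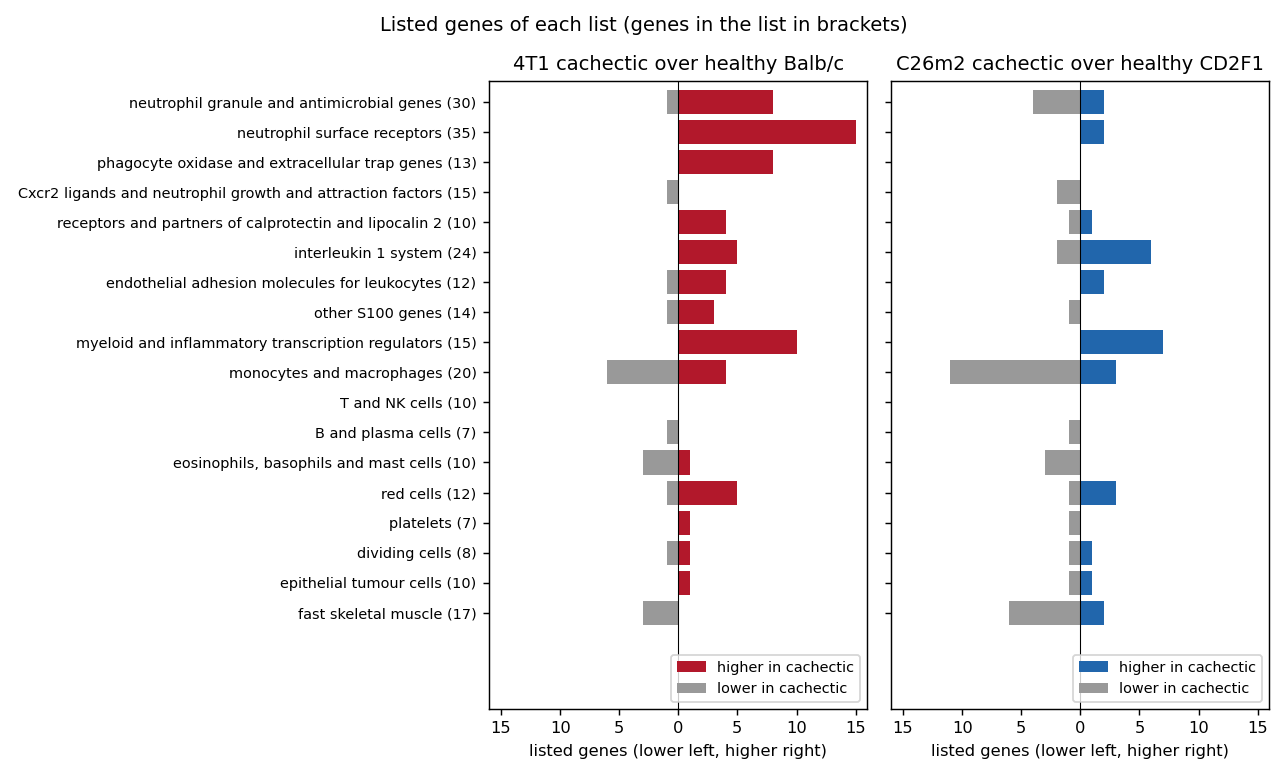
Number of listed genes of each list, higher to the right and lower to the left, in the 4T1 (left panel) and C26m2 (right panel) comparisons, with the list's size in brackets. In 4T1 the neutrophil receptor list has 15 higher and 0 lower genes, and in C26m2 the macrophage list has 3 higher and 11 lower.

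Markers of other cells that muscle or its blood could hold moved as follows, and their part in the values above was not tested. Background for all marker counts below was 17.4% of genes tested called higher and 15.4% lower in 4T1. In C26m2 these shares were 21.7% and 15.1%. Monocyte and macrophage markers were 4 higher and 6 lower of 20 in 4T1, and the listed ones summed to 125 FPKM in 4T1 cachectic muscle and 45.4 FPKM in healthy Balb/c muscle. Cd68 rose 19.6-fold and Lgals3 12.6-fold in 4T1, while Mrc1 fell to 0.398 FPKM in 4T1 cachectic muscle, against 2.35 FPKM in healthy Balb/c muscle. In C26m2 they were 3 higher and 11 lower, with sums of 49.2 FPKM in cachectic and 56.5 FPKM in healthy CD2F1 muscle. There Ms4a7 was 11.3-fold, Folr2 8.16-fold and Mrc1 6.05-fold lower in cachectic muscle. Red cell markers, the globins among them, were 5 higher and 1 lower of 12 in 4T1 and 3 higher and 1 lower in C26m2. The listed ones summed to 604 FPKM in 4T1 cachectic muscle and 175 FPKM in healthy Balb/c muscle, and to 292 FPKM in C26m2 cachectic muscle and 163 FPKM in healthy CD2F1 muscle. The globin gene Hba-a1 was 5.67-fold higher in 4T1 cachectic muscle and 2.75-fold higher in C26m2 cachectic muscle. The ratios of the listed members ran from 11.9-fold (Il1b) to 2052-fold (S100a8) in 4T1. In C26m2 they ran from 6.54-fold (S100a9) to 20.1-fold (Lcn2), and the part of blood content in them was not tested. Hba-a1 has a near-identical copy, Hba-a2, so its reads may be shared. Hbb-b1 was 5.23-fold higher in 4T1 and 2.64-fold higher in C26m2. Bpgm, an enzyme of red cell glycolysis, was 10.8-fold lower in 4T1 and 7.31-fold lower in C26m2, against the direction of the listed globins. The red cell sums include Bpgm, at 5.77 FPKM in 4T1 cachectic and 62.4 FPKM in healthy Balb/c muscle. In C26m2 it had 7.76 FPKM in cachectic and 56.7 FPKM in healthy CD2F1 muscle, so the sums understate the rise of the globins.

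T and NK cell markers, 10 in all, were in neither table. Of 7 B cell markers Ighm alone was listed, at 1.20 FPKM in 4T1 cachectic and 102 FPKM in healthy Balb/c muscle, and at 2.95 FPKM in C26m2 cachectic and 33.7 FPKM in healthy CD2F1 muscle. Of 10 eosinophil, basophil and mast cell markers, 1 was higher and 3 lower in 4T1 and 3 were lower in C26m2. The mast cell protease Mcpt4 was 15.8-fold lower in 4T1 cachectic muscle and 6.82-fold lower in C26m2 cachectic muscle. Platelet markers had 1 higher of 7 in 4T1 and 1 lower in C26m2, namely Gp1ba at 1.25 FPKM in cachectic and 2.24 FPKM in healthy CD2F1 muscle. Of 8 markers of dividing cells, Pcna was higher and Aurka lower in both tables. Of 10 epithelial markers, chosen since both cancer lines are epithelial, Lgals4 was higher in both, with 20.8 FPKM in 4T1 cachectic and 5.21 FPKM in healthy Balb/c muscle, and Krt18 lower in C26m2. Epcam is in neither table.

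The tissue label was checked against 17 fast muscle genes. In 4T1, 3 of the 17 (17.6%) were lower and 0 higher, a share near the 15.4% of all genes tested called lower. In C26m2, 6 of the 17 (35.3%) were lower and 2 higher, beside 15.1% of all genes tested called lower. The genes listed stayed abundant, and the 14 not listed in 4T1 and 9 not listed in C26m2 have no value here. Mylpf, a fast myosin light chain, had 3285.5 FPKM in 4T1 cachectic muscle and 13985 FPKM in healthy Balb/c muscle. It had 4713 FPKM in C26m2 cachectic muscle and 11181 FPKM in healthy CD2F1 muscle. Pvalb, the calcium buffer of fast fibres, fell to 1392 FPKM in 4T1 cachectic muscle, against 10602 FPKM in healthy Balb/c muscle. S100a8, at 1367 FPKM, read close to this lowered Pvalb level and below Mylpf and Myl1, the latter at 2499 FPKM in 4T1 cachectic muscle.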

How the data were processed

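Poly-A RNA of tibialis anterior was sequenced from TruSeq libraries, per the labels. TopHat2 2.1.0, Cufflinks 2.2.1, Cuffdiff and build NCBIM37 are named in the submitters' processing notes. How libraries were normalized and which annotation was used has no statement among the sources used here. Per the file headers, the authors deposited 1 FPKM value per group, a log2 fold change of cachectic over healthy with no pseudocount, and a p-value and q-value per gene. Each table lists genes at q of 0.05 or less. The number of genes tested was estimated as q times rank over p, with medians of 13218 (4T1) and 13121 (C26m2). Values of single libraries were not used here, so there is no replicate check and no test beyond the authors' own.

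The members and all lists were chosen with earlier results of these data known. There are 9 lists of the neutrophil system and 9 of cell markers, matched by symbol, then Ensembl identifier, then RefSeq synonym. For each list and table, up to 3 genes with the largest change at 1 FPKM or more in the higher group are named, with those said to be chosen after their values were seen. Of the genes this rule picks, 2 are not reported here. Genes named only as absent from a table, as copies or as parts of a count carry no such rule. The counting was tested on simulated data. Python 3.11.15, pandas 2.3.3 and scipy 1.17.1 were used.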

Additional observations from a re-analysis of the deposited data

How the results depend on the processing

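At q of 0.01 or less, 3 of the 5 neutrophil genes stayed called in 4T1, S100a8 and Cxcr2 being lost, and all 3 listed in C26m2 stayed called. With at least 1 FPKM in the higher group, none of the members was lost in either table. With an absolute log2 fold change of 1 or more, 1707 genes were higher in C26m2, against 2847 without that limit. Other counts over a whole table stayed within 1.5 times. A pseudocount of 1 FPKM lowered the log2 fold change of Cxcr2 to 2.82 and that of Il1b to 1.11, both by more than their implied SE, because both levels are low. Of 72 counts of higher or lower genes on a list, 15 moved by over 1.5 times at q of 0.01 or less, 9 with an absolute log2 fold change of 1 or more and 5 with at least 1 FPKM. In 4T1 the q limit left 1 of 3 higher genes among the other S100 genes, 2 of 4 higher endothelial adhesion genes and 1 of 3 lower markers of eosinophils, basophils and mast cells. In C26m2 it left 1 of 2 higher granule genes, 1 FPKM or more left 1 of 2 higher receptors, and the log2 limit left 3 of 6 lower fast muscle genes. Matching by exact symbol moved no list count by over 1.5 times. Depth is unknown, so the floor of the low healthy values cannot be given. Leaving out libraries was not run, since each group has 1 value. No paired analysis was possible because the tables carry no values per library.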
